A study of Homo sapiens with 5 samples.

Results

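IGFBP2-high untreated cells are those with the highest IGFBP2 share, taken as the top of 4 bins of equal size in each of the 2 libraries made before drug. Cells were ranked within a library by IGFBP2 counts divided by the total count of the cell, so the members were chosen by a measured value, and IGFBP2 itself is described here without a test. The top bin holds 119 of 478 cells in untreated D0 replicate 1 and 265 of 1063 cells in untreated D0 replicate 2, together 384 of 1541 untreated cells and of 4101 cells in the series. They were compared with the 119 and 265 cells of the bottom bin of the same library, over all other genes.

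All cells are MDA-MB-468, an EGFR-amplified triple-negative breast cancer line that was infected with a lentiviral barcode library carrying the Venus reporter and puromycin resistance, and selected with puromycin. The 2 untreated libraries are D0 replicates 1 and 2, while D3, D6 and D9 are 1 library each of cells kept in 250 nM afatinib, a covalent EGFR and ERBB2 inhibitor, for 3, 6 or 9 days. Cells were frozen and thawed before a 3′ droplet capture, and D0 came from 2 captures run on 2 flow cells. Nothing in the labels ties the D0 replicates to separate cultures. The p-values of the untreated contrast therefore rest on 2 libraries, whose spread may be technical only. With 1 residual and 49.4 prior degrees of freedom, the spread in the fit came mostly from all genes together. A small p thus does not mean that the 2 libraries gave differences of like size. For HLA-B the ratio of top to bottom bin was 0.235 and 0.584 in D0 replicates 1 and 2 (edgeR adjusted p = 1.35e-13).

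IGFBP2 is a secreted protein that binds insulin-like growth factors outside the cell and so sets how much of them reaches the IGF1 receptor. Signal from that receptor runs through the docking proteins IRS1 and IRS2 to PI3K and AKT, a route that EGFR also feeds. The protein also has an integrin-binding motif and is made by many carcinomas.

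IGFBP2 (ENSG00000115457) lies on GRCh38 chromosome 2, 216632828 to 216664436, on the plus strand. Its level was spread over a wide range without a gap at the bin boundary. Summed over cells, it stood at 243.6 CPM, the count of a gene scaled to the total of its sum, in the top bin of D0 replicate 1, then 147 and 91.8 CPM in the upper and lower middle bins and 30.1 CPM in the bottom bin. In D0 replicate 2 the 4 bins stood at 280.5, 129, 67.1 and 12.2 CPM. The last member inside the boundary held 174.4 CPM, from 4 counts in 22933, and the first cell outside it held 174.4 CPM, from 5 counts in 28668, in D0 replicate 1. In D0 replicate 2 these values were 178 CPM (2 counts of 11233) and 177.5 CPM (3 counts of 16906). Membership near the boundary therefore rests on 2 to 5 molecules of a cell. Cells without an IGFBP2 count, 50 in D0 replicate 1 and 197 in D0 replicate 2, all fell in the bottom bin. Beyond counting noise, IGFBP2 varied more than most genes of like level. Its variance over cells was 2.69 and 2.58 times that of Poisson counts at equal shares, against medians of 1.21 over 1132 genes and 1.41 over 1147 genes with a mean count within a factor of 1.5, of which 74 and 58 lay above it.

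**Figure D1:**
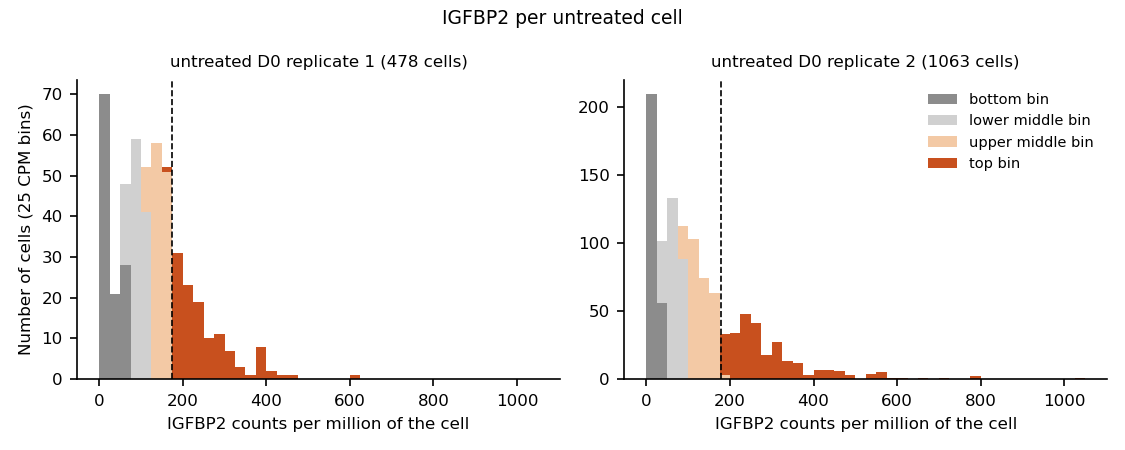
Histograms of IGFBP2 in CPM of the single cell for the 478 and 1063 untreated cells, in steps of 25 CPM, stacked by IGFBP2 bin. The dashed line marks the lowest member, at 174.4 CPM in D0 replicate 1 and 178 CPM in D0 replicate 2, and cells lie on both sides of it without a gap.

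The members were epithelial like the other cells. EPCAM, an epithelial adhesion protein, stood at 513 and 501 CPM in the top bins of D0 replicates 1 and 2 and at 508 and 507 CPM in the bottom bins. KRT19, a keratin of simple epithelia, stood at 2893 and 2879 against 3022 and 3070 CPM. KRT8, another simple keratin, was lower at 842 and 849 against 1016 and 1001 CPM (-0.24). KRT18 stood at 947 and 929 against 1106 and 1043 CPM, and CDH1 at 38.3 and 36.4 against 44.2 and 39.2 CPM. Of 8 immune markers none was among the genes of the deposited table, and of 9 fibroblast and endothelial markers only COL1A1 was, at 1.13 and 3.45 CPM in the top and 1.49 and 3.90 CPM in the bottom bins. No cell barcode was shared between the untreated libraries.

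Depth and RNA make-up differed little in D0 replicate 1 and more in D0 replicate 2. The median cell held 44769 UMIs in the top and 43643 UMIs in the bottom bin of D0 replicate 1, and 26083 against 22855 in D0 replicate 2. Mitochondrially encoded transcripts took 7.38% of the counts in the top and 7.65% in the bottom bin of D0 replicate 1, and 7.4998% against 9.06% in D0 replicate 2. Fewer members scored in G1, the phase before DNA replication. With exact binomial 95% intervals, which cover counting error only, the G1 share was 15.1% (9.22 to 22.8) of the top and 23.5% (16.2 to 32.2) of the bottom bin in D0 replicate 1, and 14.3% (10.4 to 19.1) against 21.1% (16.4 to 26.5) in D0 replicate 2. Members in S phase, when DNA is copied, made up 32.8% (24.4 to 42.0) against 26.9% (19.2 to 35.8) and 38.5% (32.6 to 44.6) against 29.8% (24.4 to 35.7). The intervals of the top and bottom bin overlapped in both libraries for each phase, and with 2 libraries the shares were not tested. Cells split by the same rule in the afatinib libraries also had the lower G1 share in the top bin, at 21.0% against 38.7% at D3, 20.9% against 36.2% at D6 and 23.6% against 42.3% at D9.

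**Figure D2:**
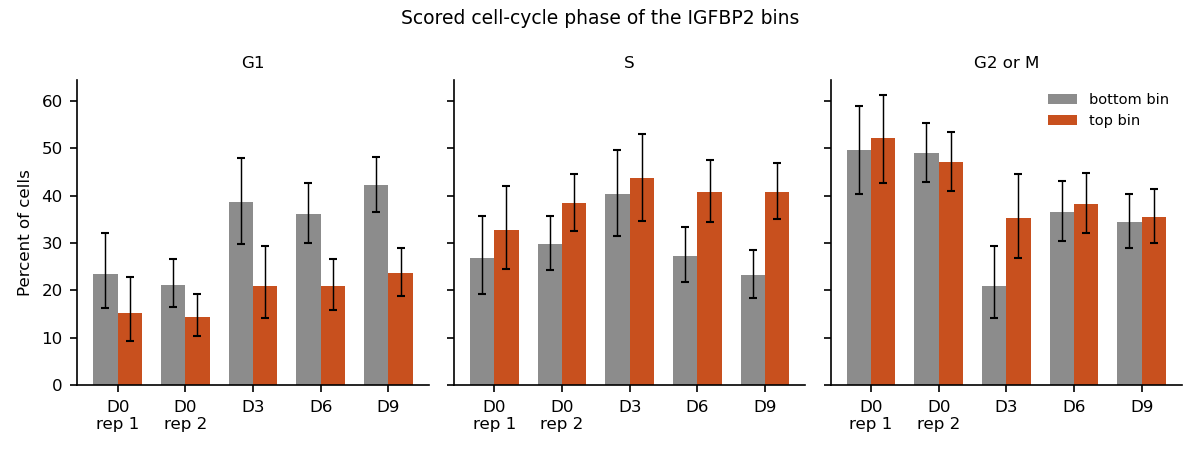
Percent of cells scored in G1, S, and G2 or M phase in the bottom (grey) and top (orange) IGFBP2 bin of each library, with exact binomial 95% intervals. The G1 bar of the top bin is the lower of the pair in all 5 libraries, and the S phase bar the higher.

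To ask which genes moved with IGFBP2 in untreated cells, counts were summed over the cells of each bin and library and compared by the quasi-likelihood test of edgeR with the library as a block. A gene was called at a Benjamini-Hochberg adjusted p under 0.05 and the same direction in both libraries. Of 11836 genes tested, 635 were called (5.36%), of which 279 were higher (2.36%) and 356 lower (3.01%) in IGFBP2-high cells. Most differences were small, with a median size of 0.46 on the log2 scale, and 113 reached a log2 fold change of 1, of which 21 were higher and 92 lower. The fit has 1 residual degree of freedom, and the number of calls moved with the setting. It was 305 without the block and 44 by DESeq2. It was 256 (91 higher and 165 lower) when cells were ranked within their cell-cycle phase, 40 after every cell was thinned to 5000 UMIs and 720 when they were ranked within 10 strata of depth. Fewer genes were also called when 1 untreated library was left out. In that fit the untreated effect came from 1 library and the spread from the afatinib libraries, so its calls are not counted.

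The 12 largest rises among called genes of at least 20 CPM were led by NPR3, the clearance receptor for natriuretic peptides, which lies on chromosome 5, 32689070 to 32791724. NPR3 stood at 93.0, 70.5, 47.2 and 27.1 CPM from the top to the bottom bin of D0 replicate 1, and at 107, 71.8, 38.2 and 36.5 CPM in D0 replicate 2. Both top bins thus lay above both bottom bins, and the middle bins lay between them. The log2 fold change was 1.67 ± 0.0959 (SE, 2 libraries; edgeR adjusted p = 3.53e-19). ADAMTS1, a secreted metalloprotease of the matrix on chromosome 21, 26835755 to 26845409, stood at 131, 90.3, 52.9 and 34.0 CPM in D0 replicate 1 and at 117, 74.4, 74.3 and 64.8 CPM in D0 replicate 2. Its log2 fold change was 1.35 ± 0.112 (edgeR adjusted p = 1.64e-13).

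PPP1R1A, an inhibitor of protein phosphatase 1, stood at 39.8 against 8.36 CPM in D0 replicate 1 and at 35.2 against 18.2 CPM in D0 replicate 2, a log2 fold change of 1.501 ± 0.172. EGLN3, a prolyl hydroxylase that marks HIF for degradation, followed at 1.03, with 40.5 against 17.3 and 37.4 against 21.0 CPM. FGF2, a growth factor for FGF receptors on chromosome 4, 122826682 to 122898236, stood at 47.8 against 23.4 and at 59.2 against 32.8 CPM, or 0.95 ± 0.111 on the log2 scale (edgeR adjusted p = 8.28e-09). ID4, which blocks basic helix-loop-helix transcription factors, stood at 188 against 104 and at 172 against 110 CPM. The stress kinase MAP3K20 stood at 218 against 126 and at 221 against 141 CPM. Their log2 fold changes were 0.76 and 0.73.

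Among the 12 were also 2 replication-linked histones. The linker histone gene H1-1 stood at 219 against 118 and at 239 against 141 CPM, and H4C3, a histone H4 gene, at 3208 against 1888 and at 3572 against 2254 CPM. Histone H4 genes code for the same protein, and whether reads of H4C3 were split between copies was not tested. The other 3 were the LIM-domain gene CSRP2, NREP and HRCT1, at log2 fold changes of 0.85, 0.76 and 0.73. All 12 kept the call when the cell with the most counts of a gene was taken out of every sum, and when cells were ranked within phase or within depth strata. Of these 12 and the 12 largest falls together, 9 lost it after thinning, 14 in G1 cells alone and 12 by DESeq2. Some also lost it when 1 untreated library was left out.

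**Figure D3:**
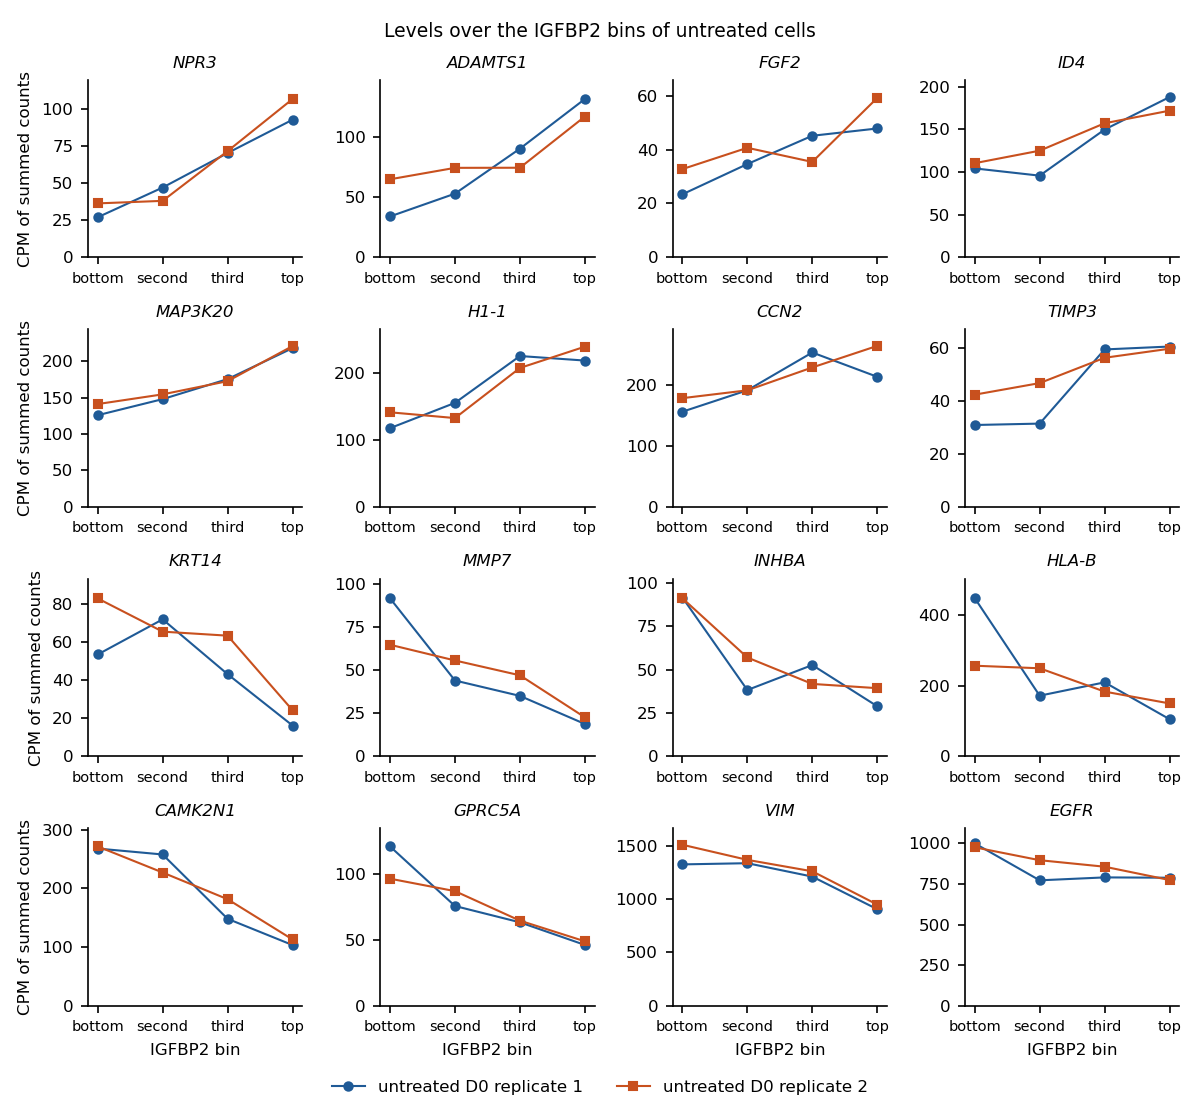
Summed counts in CPM over the 4 IGFBP2 bins of untreated cells for 16 genes, with a line for each untreated library and axes from 0, where the second and the third stand for the lower and upper middle bin. NPR3 goes from 27.1 to 93.0 CPM and from 36.5 to 107 CPM between the bottom and the top bin, while CAMK2N1 goes from 268 to 104 CPM and from 272 to 113 CPM.

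The 12 largest falls among called genes of at least 20 CPM held keratins, a matrix protease, secreted signals and an antigen-presenting molecule. CAMK2N1, an inhibitor of the kinase CaMKII, had the smallest p of all genes. It stood at 104, 148, 258 and 268 CPM from the top to the bottom bin of D0 replicate 1 and at 113, 182, 227 and 272 CPM in D0 replicate 2, or -1.30 ± 0.0675 on the log2 scale (edgeR adjusted p = 8.09e-21). In both libraries the level was higher at each step towards the bottom bin. KRT14, a keratin of basal cells on chromosome 17, 41582279 to 41586895, stood at 16.1, 43.0, 71.7 and 53.3 CPM and at 24.1, 63.2, 65.3 and 82.7 CPM, a log2 fold change of -1.74 ± 0.111. KRT6B, a keratin of stressed and hyperproliferative epithelium, had the largest fall of these 12 at -1.92 ± 0.157, with 8.63 against 60.7 CPM and 19.7 against 51.8 CPM. Its reads are hard to tell from those of KRT6A.

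MMP7, or matrilysin, a protease on chromosome 11, 102520508 to 102530750, stood at 18.8, 35.0, 43.9 and 91.6 CPM from the top to the bottom bin of D0 replicate 1 and at 22.6, 47.0, 55.6 and 64.7 CPM in D0 replicate 2. The log2 fold change was -1.86 ± 0.119 (edgeR adjusted p = 1.86e-17). In the top bin of D0 replicate 1, 1 cell held 53 of the 100 counts of MMP7. GPRC5A, an orphan receptor of epithelia, stood at 46.3 against 121 and at 49.1 against 96.7 CPM (-1.16). The secreted proteins among the 12 were INHBA, the activin A subunit (28.9 against 91.6 and 39.3 against 91.1 CPM), the WNT antagonist DKK1 (9.38 against 41.0 and 14.8 against 27.7 CPM), OLFML3 (10.1 against 44.02 and 15.3 against 47.5 CPM), the EGFR ligand AREG (19.9 against 67.1 and 23.6 against 36.2 CPM) and LCN2, an iron-scavenging lipocalin (46.9 against 175 and 76.9 against 110 CPM). The transcription factor KLF5 and the class I molecule HLA-B closed the list, at log2 fold changes of -1.04 and -1.39. For AREG, 1 cell gave 32.7% of the counts in the bottom bin of D0 replicate 1. All 12 kept the call without the highest cell of each sum and within phase.

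The IGF axis was read next. Of 19 listed genes 14 were measured and 12 passed the filter on low counts, of which 0 were higher and 3 lower in IGFBP2-high cells, with a median log2 fold change of -0.04 beside -0.01 over all genes tested. The shares of all genes called, 2.36% higher and 3.01% lower, are the background for this list and for each list below. The 3 were IRS2, the docking protein of the IGF1 and insulin receptors, at 51.2 against 69.8 and 42.1 against 77.1 CPM (-0.65 ± 0.097), IGFBP3, the main carrier of IGFs in serum, at 43.3 against 75.6 and 40.8 against 49.7 CPM (-0.53 ± 0.104), and STC2, an inhibitor of the IGFBP protease PAPPA, at 23.6 against 35.5 and 21.4 against 29.9 CPM (-0.52 ± 0.137). IGF1R, the receptor, stood at 13.1 against 11.1 CPM in D0 replicate 1 and at 11.6 against 13.7 CPM in D0 replicate 2, with -0.01 ± 0.21 on the log2 scale (edgeR adjusted p = 0.991). IRS1 was at 0.09, INSR at -0.54, IGF2R at -0.05, IGFBP4 at -0.02, IGFBP6 at -1.30, GRB10 at 0.41 and GRB14 at 0.17, none of them called. IGFBP5 passed the adjusted p (0.0167) at 0.29 without the same direction in both libraries, at 180 against 120 and 171.7 against 171.8 CPM. IGFBP1 and IGFBP7 fell under the filter.

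EGFR and 2 of its ligands were lower. Of 9 ERBB receptors and ligands tested, 0 were higher and 4 lower, with a median of -0.32. Within phase 2 were lower, with a median of -0.30. The median log2 ratio of the list was 0.0141 in D0 replicate 1 and -0.531 in D0 replicate 2, so the libraries differed in sign. EGFR itself stood at 788 CPM in the top bin of D0 replicate 1 and at 790, 772 and 1000 CPM in the next 3, and at 774, 856, 896 and 975 CPM in D0 replicate 2, or -0.32 ± 0.0616 on the log2 scale (edgeR adjusted p = 0.00027). In D0 replicate 1 the difference thus lay between the bottom bin and the rest. Beside AREG, the ligand TGFA (-0.72) and the EGFR inhibitor ERRFI1 (-0.51) were lower. For ERRFI1, 1 cell held 41 of 183 counts in the bottom bin of D0 replicate 1, and the call was lost without the highest cell (-0.42, edgeR adjusted p = 0.0598). ERBB2 stood at 12.8 against 11.5 and 9.51 against 13.7 CPM (edgeR adjusted p = 0.727). Of 16 genes of ERK output and feedback, 3 were lower, namely PHLDA1 (-0.77), cyclin D1 (CCND1, -0.46) and the AP-1 member FOSL1 (-0.37). Of 11 PI3K and FOXO targets, 3 were lower, with the ubiquitin ligase FBXO32 at -0.83, FOXO3 at -0.35 and KLF6 at -0.33. Within phase 1 was lower, and the list median was -0.24 against -0.32.

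Of 43 S phase genes 11 were higher and 0 lower, with a median of 0.21, among them the origin-licensing helicase subunit MCM5 (61.0 against 47.7 and 77.2 against 54.8 CPM) and the ribonucleotide reductase subunit RRM2 (176 against 132 and 186 against 148 CPM). The same genes score the S phase share above, and when cells were ranked within phase 1 of the 43 was higher, with a median of 0.14. Of 23 genes of cholesterol and fatty acid synthesis 8 were higher and 0 lower, with a median of 0.24. They included the sterol reductase DHCR7 (101 against 85.8 and 114 against 86.7 CPM), the desaturase SCD (0.31) and ACLY (0.33), which makes cytosolic acetyl-CoA. Of 55 nuclear subunits of oxidative phosphorylation 13 were higher and 0 lower, with a median of 0.15 and ATP synthase subunit ATP5MC2 highest at 0.30. Within phase 1 and 3 genes of these lists were called, where rises over all genes went from 279 to 91, and the list medians were 0.23 and 0.16. Of 13 mitochondrially encoded genes 0 were higher and 2 lower, MT-ND6 (-0.38) and MT-ATP8 (-0.25). MT-ND6 stood at 87.4 against 89.2 CPM in D0 replicate 1 and at 91.8 against 148 CPM in D0 replicate 2, so its difference lay mostly in the latter. The mitochondrial shares of the bins are given above, and their part in these results was not tested. Of 84 cytosolic ribosomal proteins 82 had a log2 fold change above 0, with a median of 0.10, and 2 were called higher, a share near the 2.36% of all genes.

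Several keratins and luminal genes were lower. Of 15 basal and squamous genes tested 7 were lower and 1 higher, with a median of -0.23, and 5 were lower and 0 higher without the highest cell. Beside KRT6B and KRT14, KRT16 stood at 131 against 200 and 115 against 253 CPM (-0.87 ± 0.0758), and KRT15 at 162 against 264 and 165 against 305 CPM (-0.79 ± 0.0645). KRT6A and S100A7 were called from few counts, passed the filter through the bottom bins alone and were not tested without the highest cell. KRT6A held 0 and 2 counts in the top and 13 and 11 counts in the bottom bins, and S100A7 held 0 and 4 against 10 and 51 counts, where 34 of the 51 came from 1 cell. The calcium-binding S100A9 was the one higher member, at 78.0 against 74.5 and 110 against 58.7 CPM (0.52), and it was not called without the highest cell. Of 17 luminal genes 6 were lower and 0 higher, with the secretory protein AGR2 at -1.71 (4.13 against 15.2 and 6.48 against 20.03 CPM), MUC1 at -0.47 and ELF3 at -0.41. Within phase 2 were lower, with a list median of -0.21 against -0.24. Of 8 mesenchymal genes 2 were lower. VIM, vimentin, stood at 905 against 1324 and 948 against 1508 CPM (-0.60 ± 0.0634), and fibronectin (FN1) at 3.56 against 8.36 and 3.31 against 10.4 CPM. Of 20 epithelial adhesion genes 2 were lower, desmoplakin (DSP, -0.29) and plakoglobin (JUP, -0.24).

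Of 16 genes of class I antigen presentation 9 were lower and 0 higher, with a median of -0.59. HLA-B stood at 105 against 448 CPM in D0 replicate 1 and at 150 against 257 CPM in D0 replicate 2, and B2M, the light chain of class I molecules, at 373 against 661 and 405 against 513 CPM (-0.57 ± 0.0703). In the bottom bin of D0 replicate 1, 1 cell gave 17.9% of the HLA-B counts. All 9 were also lower without the highest cell, and 7 within phase. HLA genes share reads with their paralogs. Of 22 interferon-stimulated genes 7 were lower, with a median of -0.86, and 3 without the highest cell. This median came from D0 replicate 1, where 21 of the 22 were lower in the top bin and the median log2 ratio was -1.67. In D0 replicate 2, 9 were lower and 13 higher, with a median of 0.0846. Within phase 0 were called, with a median of -0.91. Of 13 NF-kB and chemokine genes 7 were lower, with a median of -0.98, and 4 without the highest cell. The median log2 ratio was -1.63 in D0 replicate 1 and -0.492 in D0 replicate 2. TNFAIP3, which shuts off NF-kB, held 48 counts in the bottom bin of D0 replicate 1, and 47.9% of them came from 1 cell. Its call was lost without the highest cell (-1.05, edgeR adjusted p = 0.114). CXCL3 and IL6 were called from few counts, passed the filter through the bottom bins alone and were not tested without the highest cell. CXCL3 held 3 and 5 counts in the top and 20 and 12 in the bottom bins, where 13 of the 20 came from 1 cell. IL6 held 2 and 6 against 17 and 13 counts.

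Of 21 genes of the integrated stress response 5 were lower and 0 higher, with ATF3 at -1.11, PPP1R15A at -0.91 and DDIT3 at -0.60. Within phase 1 was lower, with a list median of -0.18 in both rankings. The median log2 ratio of the list was 0.0141 in D0 replicate 1 and -0.238 in D0 replicate 2. For PPP1R15A, 1 cell held 116 of 274 counts in the bottom bin of D0 replicate 1, and the log2 fold change was -0.55 without the highest cell. Of 20 heat shock and dissociation genes 3 were lower, among them the small chaperone HSPB1 at 161 against 299 and 184 against 281 CPM (-0.73 ± 0.0667). Of 22 antioxidant genes PRDX2 and TKT were higher (0.27 and 0.26) and the ferritin chain FTH1 lower (-0.43 ± 0.0852), at 5129 against 8259 and 5570 against 6450 CPM. Of 14 secreted proteases and inhibitors 4 were lower, with MMP7, CST6 (-0.57), PLAU (-0.49) and CTSB (-0.41), and TIMP3, an inhibitor of metalloproteases, was higher at 60.4 against 30.8 and 59.6 against 42.3 CPM (0.72 ± 0.105). Of 14 YAP and TEAD targets CCN2, a matrix-associated growth regulator, was the one called, at 213 against 156 and 264 against 178 CPM (0.53 ± 0.0653), and the median log2 ratio of the list was 0.108 and -0.0201 in the 2 libraries. Of 22 glycolysis and hypoxia genes only EGLN3 was called, and of 22 lysosomal genes 2 were lower, the proton pump subunit ATP6V0D2 (-0.76) and CTSB. Of 7 metallothioneins MT2A was lower (-0.29). Of 54 G2 and M phase genes HMGB2 was higher (0.25) and NEK2 (-0.38) and CENPE (-0.32) lower. No member of the lists of 14 p53 targets and 11 nuclear noncoding RNAs was called by edgeR, whose medians were -0.10 and -0.09. Of 7 genes that the study singled out for resistance on these samples, which is no independent evidence of direction, FGF2 and PDGFC (47.6 against 28.0 and 47.6 against 36.5 CPM) were higher.

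**Figure D4:**
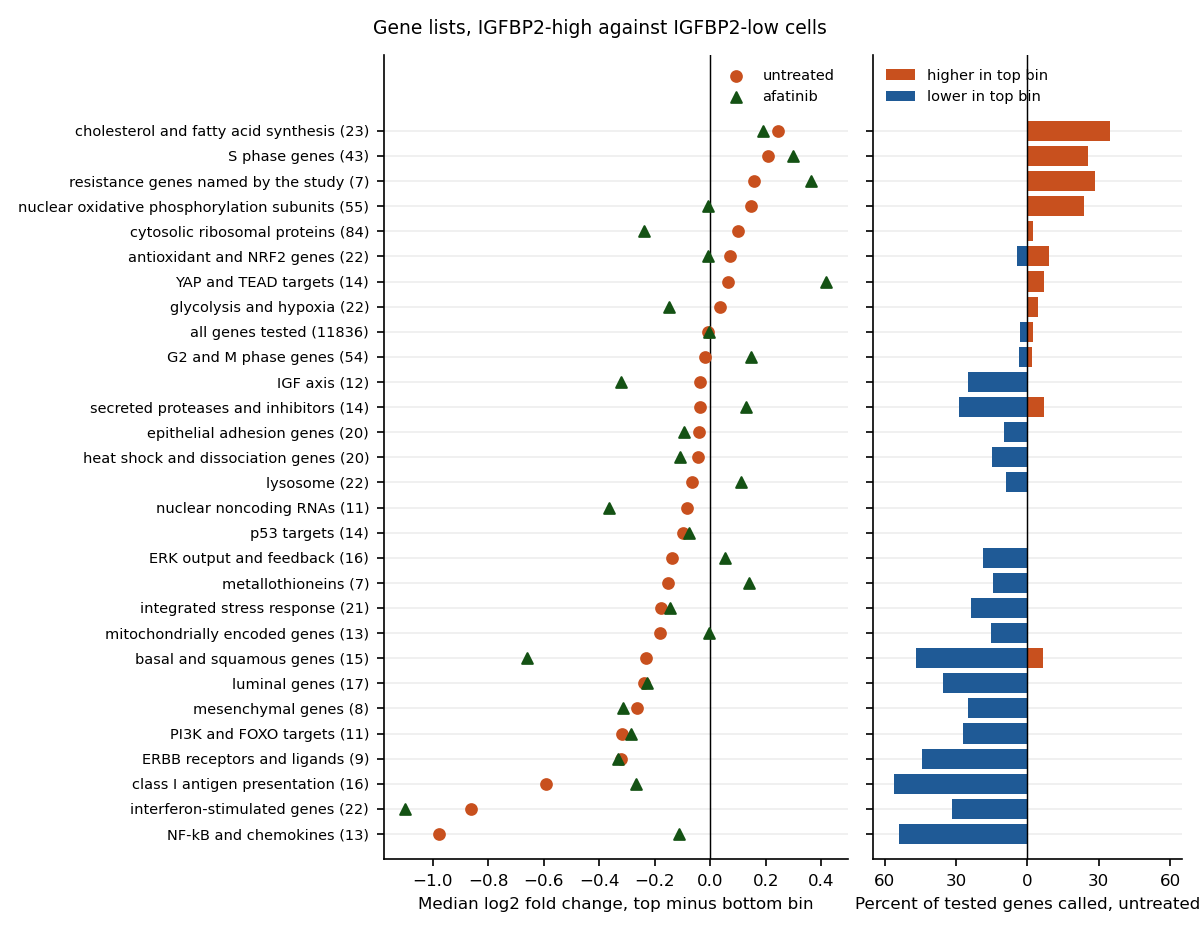
Left, median log2 fold change (top minus bottom IGFBP2 bin) of the gene lists described here with at least 5 genes tested, in untreated (circles) and afatinib (triangles) libraries, with the number tested in untreated cells in brackets. Right, percent of the tested genes called higher (orange) or lower (blue) in untreated cells, where class I antigen presentation has 9 of 16 genes lower and all genes tested 3.01%.

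The cells between the bins and the afatinib libraries took no part in the untreated contrast, so the called genes were read there. Between the upper and the lower middle bin of the untreated libraries, where IGFBP2 differed less, 357 of 627 called genes (56.9%) kept their direction in both libraries, against 3750 of all 11796 genes tested (31.8%). By the test 56 were called the same way and 5 the opposite way, against 86 and 10 of all 11796 genes. The cells are different but the libraries are the same.

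The afatinib libraries were split by the same rule into top and bottom bins of 119, 235 and 284 cells at D3, D6 and D9. There 822 of 11494 genes were called (7.15%), 396 higher (3.45%) and 426 lower (3.71%) in the top bin, with the same direction required at all 3 days. The count was 22 without the library block and 273 by DESeq2. The 3 days, 1 library each, stood as replicates in this fit, so its spread mixes day and library. It had 2 residual and 14.0 prior degrees of freedom. Of the 635 genes called in untreated cells 578 were tested there, and 197 (34.1%) were called in the same direction and 7 in the opposite one. Over all 11349 genes tested in both contrasts, 676 (5.96%) were called in the direction of the untreated contrast and 123 in the opposite one. Opposite calls were thus about as frequent among the 578 as over all genes. Of the 12 largest rises 11 were called again, with NPR3 at 2.05 ± 0.121 (71.6 against 15.7 CPM at D3, 70.6 against 18.7 at D6 and 66.4 against 14.9 at D9) and ADAMTS1 at 2.18 ± 0.172 (81.5 against 10.9, 56.0 against 18.7 and 52.4 against 10.8 CPM). PPP1R1A was at 0.45 (edgeR adjusted p = 0.0799). Of the 12 largest falls 8 had enough counts, and all 8 were called again, with KRT14 at 12.6 against 183, 5.06 against 159 and 19.96 against 108 CPM and MMP7 at 16.3 against 115, 7.91 against 36.2 and 9.26 against 47.4 CPM. OLFML3, DKK1, INHBA and AREG fell under the filter.

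**Figure D5:**
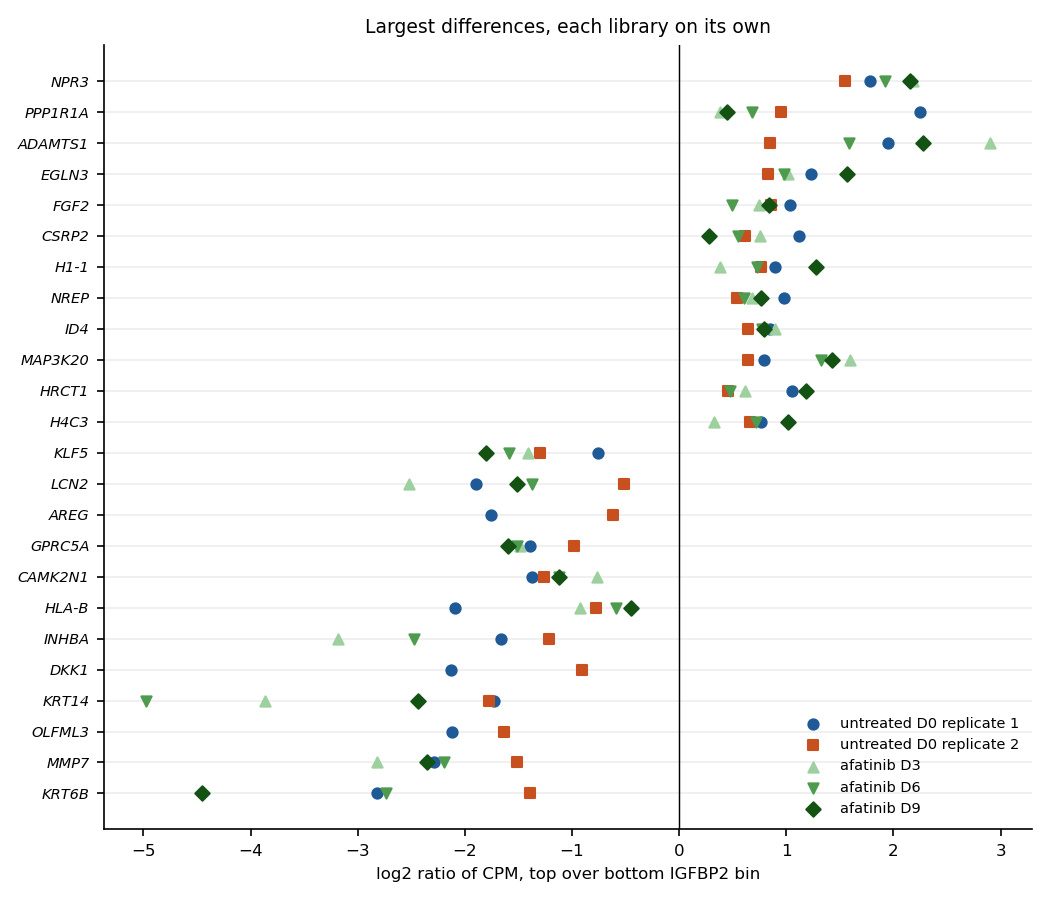
Log2 ratio of CPM between the top and the bottom IGFBP2 bin in each of the 5 libraries for the 12 genes highest and the 12 lowest by fold in untreated cells, with pairs under 1 CPM on either side left out. All points of the 12 rises lie right of 0 and all points of the 12 falls left of it, and the untreated points chose the genes.

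The gene lists were also counted in the afatinib libraries, where 3.45% of all genes were called higher and 3.71% lower. In the top bin 19 S phase genes were higher and 13 interferon-stimulated genes lower. Of the nuclear subunits of oxidative phosphorylation 0 were called in either direction, with a median of -0.01. Of the cytosolic ribosomal proteins 1 was higher and 18 lower, with a median of -0.24. Mitochondrial transcripts took 18.9% of counts in the top and 16.7% in the bottom bin at D3, 18.9% against 17.6% at D6 and 8.56% against 10.3% at D9. The ribosomal share was 11.8% against 14.6%, 12.1% against 14.0% and 13.6% against 14.6%, and the median cell held 16836 against 17806, 10125 against 12453 and 19653.5 against 16862 UMIs. Their part in this result was not tested. Of YAP and TEAD targets 6 were higher, with a median of 0.42. The difference between the untreated and the afatinib contrast was called by the interaction test of edgeR for 20 of 11922 genes (0.168%), and for 0 without the block, where 237 genes had an unadjusted p under 0.05. List differences were not tested.

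IGFBP2-high cells had somewhat more IGFBP2-high cells among their nearest neighbours than IGFBP2-low cells had, by the other variable genes. Among the 15 nearest neighbours of a member within its library, 29.0% and 35.3% were members in D0 replicates 1 and 2, against 19.7% and 21.2% among the neighbours of bottom-bin cells and 24.9% of all cells. Bottom-bin cells made up 29.4% and 28.5% of the neighbours of bottom-bin cells. This was near the share for members in D0 replicate 1 and below it in D0 replicate 2. With 50 neighbours, members made up 28.24% and 34.93% of the neighbours of members in D0 replicates 1 and 2. Bottom-bin cells then made up 26.02% and 25.88% of the neighbours of bottom-bin cells. Whether such gathering was particular to the members thus depended on the library and on the number of neighbours. Cells are not replicates, so these shares carry no test.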

How the data were processed

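Single-cell RNA of 5 libraries was captured with 3′ droplet chemistry. The authors aligned reads to GRCh38 and counted UMIs with Cell Ranger 6.1.2, dropped cells under 5000 UMIs and cells whose mitochondrial share or ratio of detected genes to UMIs lay off a loess fit, the latter as putative doublets, and removed low-expressed genes. The deposited values are estimated counts, namely whole-number UMI counts after ComBat-seq batch adjustment by the authors, and rounding changed none of them. Unadjusted counts were not used here. The deposited gene identifiers, symbols and cell names carry no unit. The table holds 12474 genes in 4101 cells, the smallest with 5124 UMIs. No further doublet removal was made. The test had been planned for raw counts and was run on these adjusted counts.

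Cells were ranked within a library by IGFBP2 counts over the cell total, with ties in file order, cut into 4 bins of equal size, and the counts of each bin were summed. The sums of the untreated fit ranged from 5328765 to 7247733 counts, IGFBP2 left out. Genes with too few counts were removed with filterByExpr. The quasi-likelihood test of edgeR 4.0.16 (R 4.3.3) with TMM factors was fitted over all genes, with the library as a block because both bins come from the same library. The untreated fit had 1 residual degree of freedom and 49.4 prior degrees of freedom. p-values were adjusted by Benjamini-Hochberg, and ± is the standard error of the fit. CPM scale the count of a gene to the total of the summed counts. Cell-cycle phase came from the scores of scanpy 1.11.5, which used 43 genes for S and 54 for G2 and M. Neighbours were taken on 30 principal components of 2000 variable genes without IGFBP2.

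Named genes were the 12 largest rises and 12 largest falls among called genes with at least 20 CPM over the 4 sums, up to 4 called members of each list, all measured IGF axis genes, and EGFR, ERBB2, MMP7 and GPRC5A. KRT15, KRT16, S100A9 and B2M were added after their values were seen. The members and lists were chosen with earlier results of these data known. Scripts were tested on simulated data. Alternatives were other normalization, filters, tools (DESeq2 1.42.0, limma 3.58.1), cell splits and leaving out each library. The result of 1 further list is not reported here.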

Additional observations from a re-analysis of the deposited data

Results flagged for a closer look

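The contrast between the IGFBP2 bins differed between untreated and afatinib libraries for 20 genes by the interaction test of edgeR, at an adjusted p under 0.05. On the log2 scale, as afatinib minus untreated, the difference was positive for LTB 4.17, THBS1 1.18, MAP3K20 0.66, NRK 1.31, CPA4 0.65, ADGRF1 0.81, SYT12 0.78 and MET 1.05. It was negative for KRT16 -1.73, KRT17 -1.01, LY6D -1.61, DEFB1 -2.31, SNHG19 -1.14, ALDH2 -0.88, LMO4 -0.63, BARX2 -1.09, CCL5 -5.39, SPON2 -1.78, SDC1 -0.67 and EBPL -0.59. None of the 20 was called without the library block.

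The untreated and the afatinib contrast had opposite signs and were both called for LTB (-2.79 and 1.38), LY6D (0.69 and -0.90), DEFB1 (0.78 and -1.52), SNHG19 (0.44 and -0.69), ADGRF1 (-0.43 and 0.39) and MET, the receptor of hepatocyte growth factor (-0.33 and 0.73). KRT16 was lower in both, by -0.87 and -2.60, and MAP3K20 higher in both. LTB stood at 10.4 CPM or less in every untreated bin, and 1 cell held 25 of 56 and 29 of 41 counts in the bottom bins of D0 replicates 1 and 2. For CCL5, 1 cell held 39 of 40 counts in the top bin of D0 replicate 1 and 9 of 9 counts in the bottom bin of D0 replicate 2, and the ratio of top to bottom was 1.68 and 0.181 in the 2 libraries.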

How the results depend on the processing

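Against 635 genes called in the untreated contrast, 305 were called without the library block, 44 by DESeq2, 369 with 10 bins in place of 4, 224 against both middle bins, 256 ranked within phase, 18 in G1 cells alone, 40 after thinning and 96 between the upper and lower middle bins, a split chosen after seeing the data. Leaving out 1 untreated library gave 32 to 108. The afatinib contrast went from 822 to 22 without the block and to 273 by DESeq2, where 669 genes had no adjusted p. The interaction went from 20 to 0 without the block and to 75 ranked within depth. List members called went from 114 to 52 within phase, and the median depth difference from 2177 to -102 UMIs within depth. Thinned and G1 fits tested 8430 and 8628 genes, and other causes were not tested. Of the 24 largest changes, all 24 kept the call without the block and within phase, 15 after thinning, 12 by DESeq2 and 10 in G1 cells.

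Log2 fold changes that turned direction were, in G1 cells alone, TIPIN -0.23, MT-ATP8 0.15, MUC1 0.18, IRF9 0.48, PPP1R15A 0.14, DDIT3 0.21, SLC3A2 0.081, IGF1R 0.019, IGF2R 0.33, IRS1 -0.18, GRB14 -0.20 and ERBB2 0.37. After thinning they were ERRFI1 0.12, MVD -0.10, PLAU 0.11, IGF2R 0.30, IGFBP4 0.068, IGFBP5 -0.15, GRB10 -0.14 and GRB14 -0.16. In cells under 10% mitochondrial counts they were MT-ATP8 0.080 and IGF1R 0.075, against both middle bins TGFA 0.081, MT-ND6 0.058, MT-ATP8 0.10, TNFAIP3 0.25, BIRC3 0.19, IGFBP4 0.037 and GRB14 -0.13, and with 10 bins IGFBP4 0.029 and IRS1 -0.37. With wider top and bottom bins they were IGF1R 0.022 and IGF2R 0.0026, within phase IGF1R 0.16, within depth IGF2R 0.083, IGFBP4 0.043 and GRB14 -0.054 and by DESeq2 IGF1R 0.0099. Between the middle bins they were OLFML3 0.39, AREG 0.48, STC2 0.15, FOSL1 0.015, TIPIN -0.14, ATP5MC2 -0.045, ACLY -0.037, MVD -0.034, HLA-F 0.017, ATF3 0.74, DDIT3 0.10, SLC3A2 0.19, BIRC3 0.21, PLAU 0.018, INSR 0.23, IGF2R 0.17, IGFBP6 0.22 and GRB14 -0.0036, of which AREG and ATF3 were called by edgeR (adjusted p = 0.0449 and 0.0466). Leaving out 1 library gave GRB14 -0.026 to 0.42, IGF2R -0.092 to 0.024, IGFBP4 -0.31 to 0.24, IRS1 -0.11 to 0.37, ERBB2 -0.48 to 0.16 and IGF1R -0.20 to 0.25.

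Limits are the 2 untreated libraries, the batch adjustment made before deposit, and the 2 to 5 IGFBP2 counts per cell at the boundary of the top bin.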

Other observations

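A further 13 genes passed the adjusted p of edgeR in the untreated contrast with opposite directions in the 2 libraries, and were not called: IFIT1, IFIT3, IFI27, MX1, GADD45G, IFI6, OASL, DDIT4, IGFBP5, NT5E, MB, BST2 and RGS2. Several are interferon-stimulated genes. In the bottom bin of D0 replicate 1, 1 cell held 229 of 302 counts of IFIT1 and 222 of 260 counts of IFIT3. IFIT1 stood at 1.69 against 56.1 CPM in that library and at 2.07 against 1.36 CPM in D0 replicate 2.

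Genes beside IGFBP2 on chromosome 2 had a median log2 fold change in the fit near that of all genes. Within 5 Mb, 50 genes were tested, of which 1 was higher and 4 lower, FN1 among them, beside 2.36% and 3.01% of all genes. Their median was 0.00028 beside -0.0096 over all genes. By library, their median log2 ratio was -0.073 beside 0.0013 over all genes in D0 replicate 1, and -0.019 beside -0.036 in D0 replicate 2. Of all chromosomes, chromosome 22 had the largest median log2 ratio in D0 replicate 1. There 19 of 293 genes were higher and 2 lower, beside 279 and 356 of 11836 over all genes. Its median log2 ratios were 0.11 in D0 replicate 1 and -0.018 in D0 replicate 2, beside 0.0013 and -0.036 over all genes.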
